A study of Mus musculus with 15 samples.

Results

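The libraries described here are the 5 from a mouse neural precursor cell line that overexpresses Atf4 and the 5 from a sister line that overexpresses Atf3, compared directly with each other. They are 10 of the 15 libraries of the series, chosen by their titles. The other 5 come from a control line and entered no test below. They are given only as a reference level. The study asked how the transcription factors Atf3 and Atf4 change gene expression while neural precursor cells of the adult hippocampus begin to differentiate.

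Each line carries a piggyBac insertion with a doxycycline-responsive transactivator (Tet-On 3G, driven by SV40) and a puromycin resistance gene. In the Atf4 line and the Atf3 line the cassette also holds the coding sequence of the named factor behind the TRE3G promoter, and in the control line it holds neither. The precursors were taken from the hippocampus of mice labelled as female and 6 weeks old and were grown as attached monolayers with EGF and FGF2. All 15 cultures received 100 ng/ml doxycycline at the moment EGF and FGF were withdrawn to start differentiation, and all were harvested 10 h later. One stable line was made per construct, so the factor and the line that carries it cannot be told apart. No label says that the libraries of a line came from separate cultures or experiments, so the p-values below measure only the spread between these libraries, which may be technical.

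ATF3 and ATF4 are basic leucine zipper transcription factors that bind related DNA elements, alone or with partners such as C/EBP and AP-1 proteins. ATF4 is the main effector of the integrated stress response: when the initiation factor eIF2 is phosphorylated, ATF4 is translated and raises genes for amino acid synthesis and uptake, tRNA charging and, under lasting stress, cell death regulators. ATF3 is an immediate early gene that is itself a target of ATF4. It can repress or activate transcription and is known in neurons for its induction after axon injury.

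Library totals were 56.8 to 65.1 M counts for the Atf3 line and 55.0 to 69.6 M for the Atf4 line. Levels are given as CPM, the count relative to a library total scaled by trimmed mean of M values (TMM). Of 17 neural stem and precursor cell markers 14 were at 1 CPM or more on average over the 10 libraries, among them Sox2 at 207 to 236 CPM in Atf3 libraries and 219.9 to 248 CPM in Atf4 libraries, and Prom1, Thbs4 and Lpar1 were below it. Most defining markers of other cell types were under 1 CPM in each of the 10 libraries. That held for 8 of 9 microglia, 5 of 8 endothelial, 8 of 8 mural and fibroblast and 4 of 6 ependymal markers. The microglia marker C1qa had no count in these libraries. The labelled sex did not match the counts. In all 15 libraries the Y-linked genes Ddx3y and Kdm5d were between 55.4 and 72.1 CPM and between 56.1 and 88.3 CPM, and Xist, the RNA that coats the inactive X chromosome, was at most 0.650 CPM. These genes were chosen after their values were seen.

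Within the 10 libraries the first principal component separated the lines and held 47.3% of the variance. Atf3 libraries lay at -31.9 to -17.8 on it, 4 Atf4 libraries at 23.3 to 34.2, and Atf4 replicate 5 at 10.8, nearest to the Atf3 line. Of the genes that differed between the lines, Atf4 replicate 5 was the Atf4 library nearest to the Atf3 mean in 51.3%, against at most 15% for each of the others. Atf3 replicate 4 stood apart in another way: it had the highest counts of several immediate early genes and the lowest share of mitochondrial counts, 3.23% against 3.77% to 3.95% in the other Atf3 libraries. The counts over all genes and those of the immediate early list are given without each of these libraries, and other lists without one of them where it moved the count.

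The overexpressed genes check the labels, and only one of them matched its label in a direct comparison. Atf3 (ENSMUSG00000026628; GRCm38 chromosome 1, 191170296 to 191218039, minus strand) was at 1919, 2107, 1771, 1949 and 1961 CPM in Atf3 replicates 1 to 5 and 1.14, 1.22, 1.27, 1.47 and 1.90 CPM in Atf4 replicates 1 to 5. It was lower in the Atf4 line by 3 orders of magnitude (log2 fold change -10.43 ± 0.11 SE, edgeR adjusted p = 3.49e-16). The Atf4 line overlapped the control line, at 1.67 to 10.99 CPM, only through its replicate 5. Atf4 (ENSMUSG00000042406; GRCm38 chromosome 15, 80255184 to 80257541, plus strand) was at 267, 227, 265, 249 and 243 CPM in Atf3 replicates 1 to 5 and 128, 147, 149.6, 154 and 188 CPM in Atf4 replicates 1 to 5. Every library labelled Atf4 thus had less Atf4 mRNA than every library labelled Atf3 (log2 fold change -0.69 ± 0.08 SE, edgeR adjusted p = 4.2e-05), although both lines were above the control line at 76.3 to 92.6 CPM. Gene-level counts do not separate the inserted coding sequence from the mouse's own gene, and they say nothing of the amount of protein. The name Atf4 line is kept below for the libraries so labelled, and each direction drawn from it rests on that label.

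**Figure D1:**
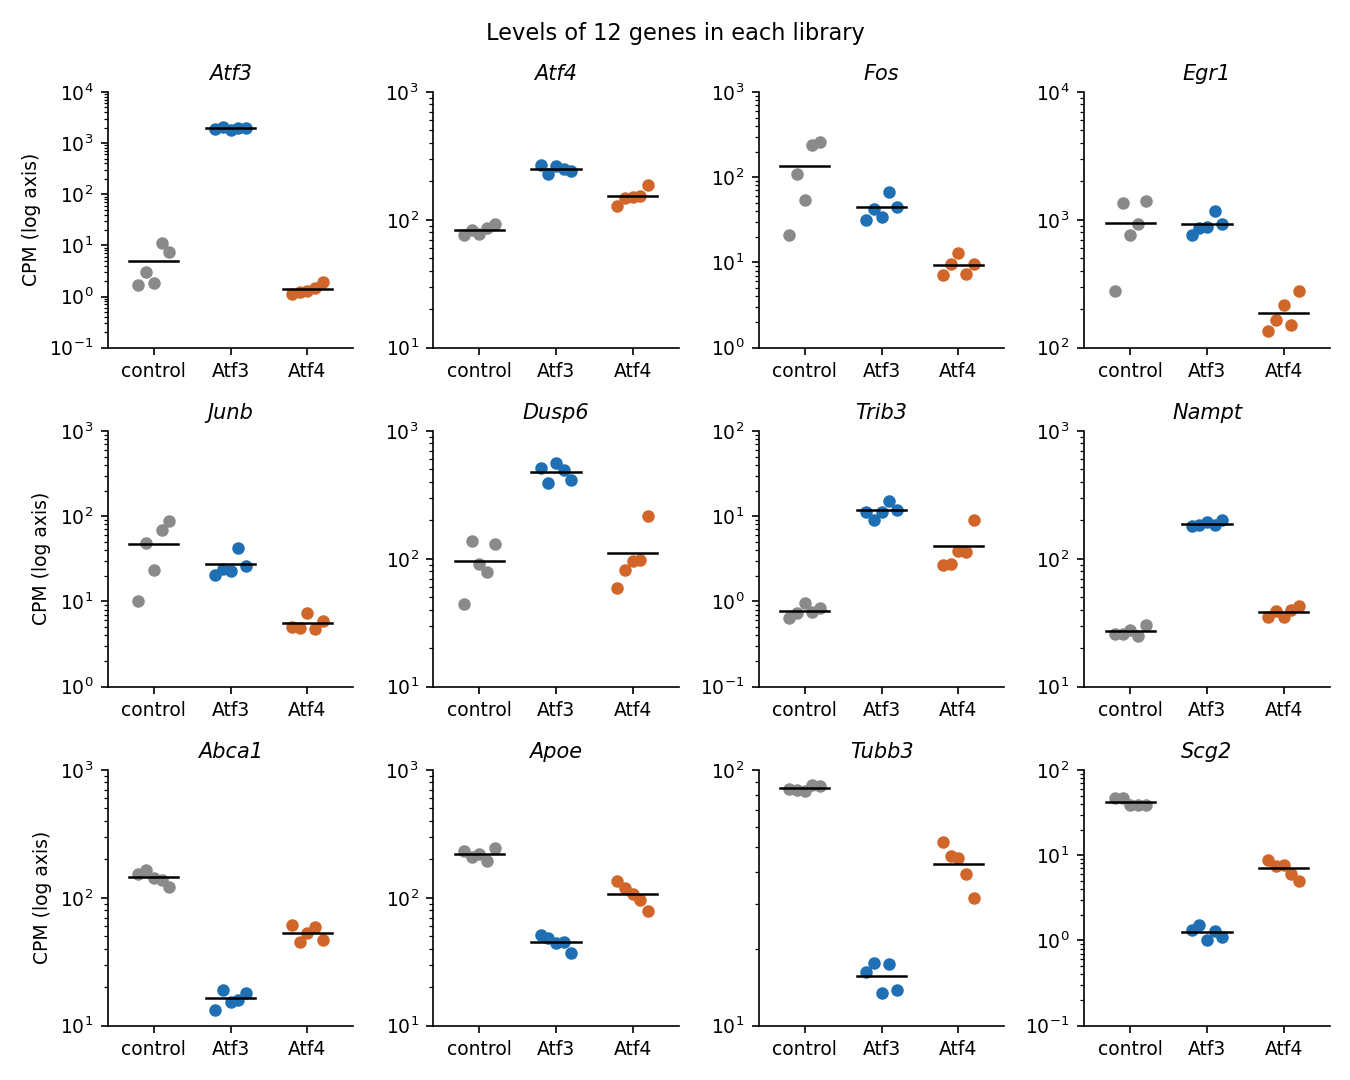
Levels of 12 genes in CPM (log axis) in each of the 15 libraries. Points are libraries of the control, Atf3 and Atf4 lines, and black bars are the means of 5. The 5 Atf3 libraries are near 1942 CPM for Atf3, Atf4 is higher in libraries of the Atf3 line than of the Atf4 line, and Dusp6 and Trib3 show Atf4 replicate 5 above the other Atf4 libraries.

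A large share of the transcriptome differed between the lines, mostly by small amounts. Of 17386 genes tested, 7140 (41.1%) passed an adjusted p of 0.05 in edgeR's quasi-likelihood test. In the Atf4 line 3444 genes (19.8%) were higher and 3696 (21.3%) lower, with a median absolute log2 fold change of 0.32 among them. Fold changes are Atf4 line minus Atf3 line throughout. At least 2-fold differences were fewer: 312 genes (1.79%) were higher and 159 (0.915%) lower in the Atf4 line, 2.71% of all. Where libraries were scaled by their upper quartile in place of TMM, the median over all genes moved from 0.02 to 0.06 and the split became 4534 higher and 2761 lower, that is 62.2% higher against 48.2%. The balance of directions thus depends on the scaling. Without Atf4 replicate 5 the counts were 3802 higher and 3959 lower, of which 366 and 234 at least 2-fold. Without Atf3 replicate 4 they were 3250 higher and 3612 lower, of which 348 and 157 at least 2-fold. The library kit does not mark strand, so reads on exon bases that a gene shares with another cannot be assigned. Such bases make up 10% or more of Aars, Ccnd1, Cdkn1c, Cebpb, Cebpd, Dll1, Dusp5, Gadd45a, Hes5, Lef1, Nlgn3, Pdgfa, Spry1 and Tmem255a. The share ran from 10.6% of Tmem255a to 41.2% of Nlgn3, counting only the other gene with the most shared bases. The values of these genes are uncertain, but the share does not give the size of the error, which was not tested.

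The direction of the differences went with the level of the gene. Genes under 1 CPM had a median log2 fold change of 0.20, and 222 of the 312 genes that were at least 2-fold higher in the Atf4 line were in this class. Genes at 100 CPM or more had a median of -0.08, and among those that passed the test 271 were higher and 1011 lower. Any count was found for 25399 to 26068 genes in the Atf4 line and for 24343 to 24916 in the Atf3 line. The part of RNA composition in these medians was not tested. Chromosome medians ran from -0.01 on chromosome 11 to 0.05 on chromosome 13.

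**Figure D2:**
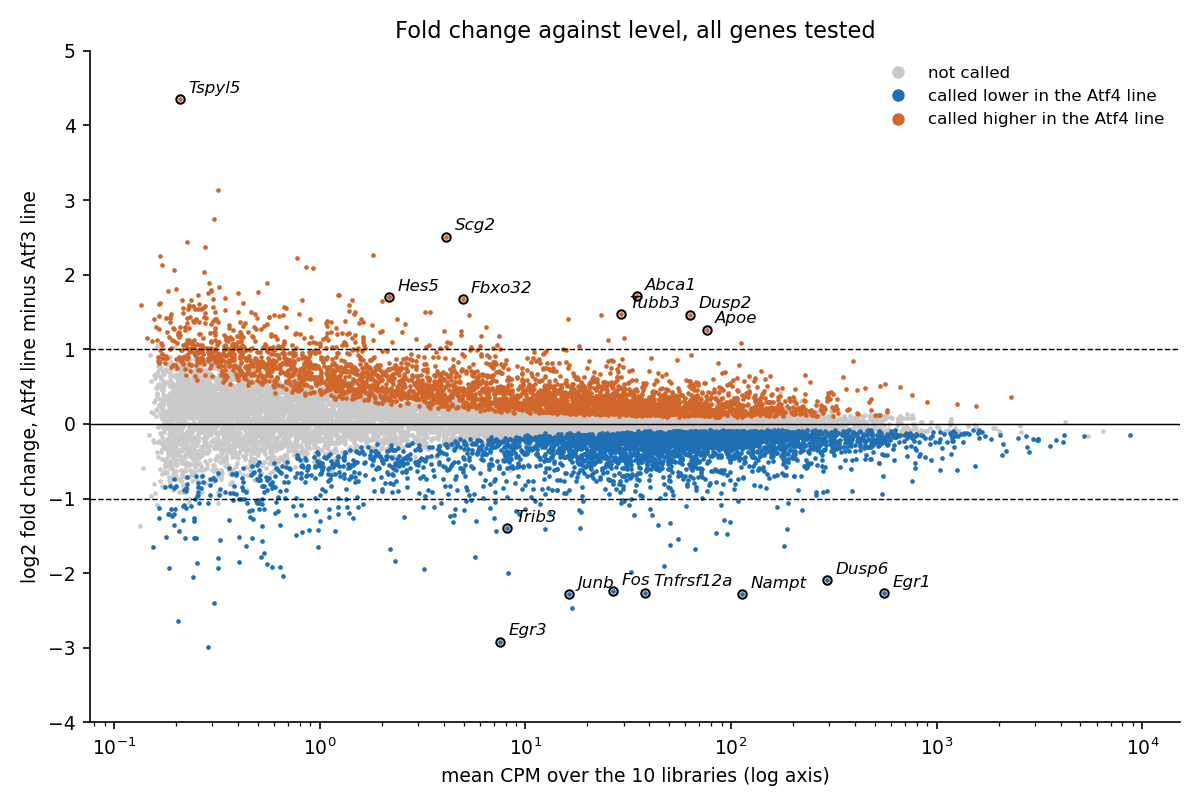
Log2 fold change (Atf4 line minus Atf3 line) of the 17386 genes tested against their mean level over the 10 libraries in CPM (log axis). Orange points were called higher and blue points lower in the Atf4 line by edgeR, dashed lines mark 2-fold, and Atf3 itself, at -10.43, lies outside the axis.

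For most genes the Atf4 line sat between the control line and the Atf3 line. Among all genes tested the mean level of the Atf4 line was the middle of the 3 lines in 65.2%. Among the genes that passed the test it was the middle in 73.6% (5253 of 7140), the Atf3 line in 8.42% and the control line in 18.0%. Among genes called lower the Atf4 line was the middle in 79.6%, and among genes called higher in 67.1%. These are positions of means, with no test of the control line behind them. The gene lists below are described by how many of their tested members were called. Each such count reads against the shares over all genes, 19.8% higher, 21.3% lower and 41.1% in either direction, and a list near these shares shows nothing of its own. Those shares vary with level. Of 2441 genes at 100 CPM or more 271 were higher and 1011 lower. Of 3627 genes at 1 to 10 CPM 1057 were higher and 433 lower. The lists were not compared with genes of like level, so part of an excess can follow from level.

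**Figure D3:**
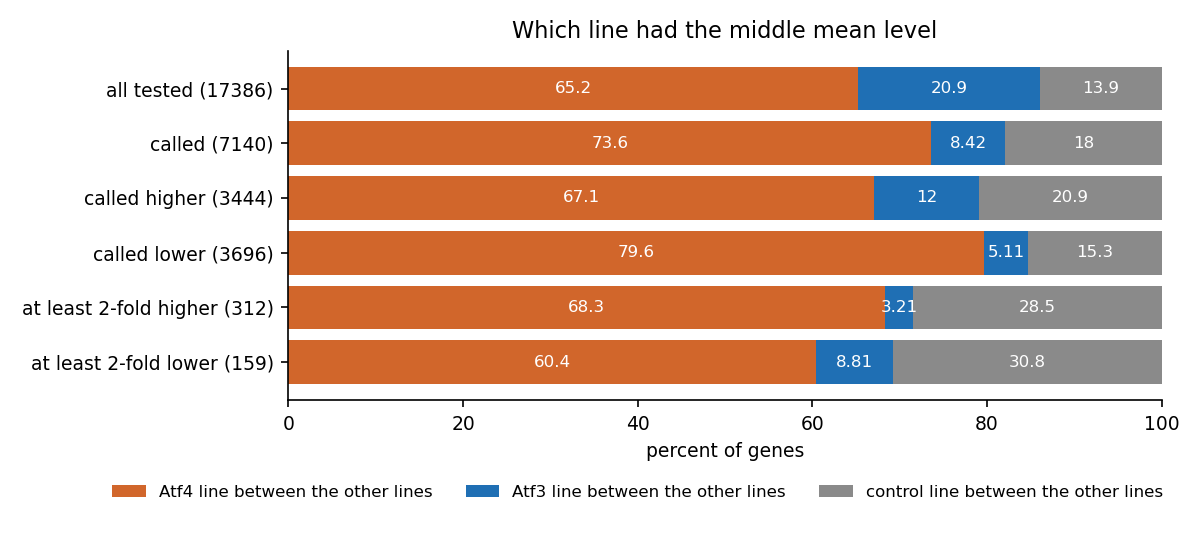
Share of genes, in percent, for which the Atf4 line (orange), the Atf3 line (blue) or the control line (grey) had the middle of the 3 mean levels. Bars are gene classes with their number of genes. The Atf4 line was the middle one in 60.4% to 79.6% of each class shown.

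The immediate early genes, which encode growth-factor-inducible regulators such as the AP-1 subunits and the EGR zinc finger proteins, had the lowest median of the lists with at least 8 tested members. Of 20 tested members 18 were lower in the Atf4 line, 11 of them at least 2-fold, where 21.3% and 0.915% of all genes were. The median of the list was -1.24, against 0.02 over all genes. Fos was at 31.4, 42.9, 34.5, 67.8 and 45.2 CPM in Atf3 replicates 1 to 5 and 7.16, 9.48, 12.8, 7.32 and 9.46 CPM in Atf4 replicates 1 to 5. No Atf4 library reached the lowest Atf3 library (log2 fold change -2.25 ± 0.21 SE, edgeR adjusted p = 8.4e-06). The control line ranged widely for the same gene, from 20.7 to 256 CPM. Egr1, another serum-responsive transcription factor, was at 765, 858, 882, 1166 and 927 CPM in Atf3 replicates 1 to 5 and 135, 165, 215, 150.3 and 276 CPM in Atf4 replicates 1 to 5. Its lines did not overlap either (log2 fold change -2.27 ± 0.18 SE, edgeR adjusted p = 2.45e-06), and the control mean was 943 CPM. Egr3 was at 10.1 to 20.3 CPM in Atf3 libraries and 1.31 to 2.03 CPM in Atf4 libraries (log2 fold change -2.92 ± 0.19 SE, edgeR adjusted p = 5.93e-07), with 20.3 CPM in Atf3 replicate 4 and at most 12.5 CPM in the other Atf3 libraries. In the control line Egr3 ranged from 10.1 to 222 CPM.

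Junb, an AP-1 subunit, was at 20.5 to 42.02 CPM in Atf3 libraries and 4.72 to 7.26 CPM in Atf4 libraries (log2 fold change -2.28 ± 0.19 SE, edgeR adjusted p = 4.19e-06), and 7.52% of its exon bases are shared with Prdx2. Ier2 was at 59.9 to 116 CPM in Atf3 libraries and 15.6 to 25.3 CPM in Atf4 libraries (log2 fold change -1.90 ± 0.19 SE, edgeR adjusted p = 1.42e-05). Egr2 was at 27.3, 25.98, 21.9, 38.98 and 28.3 CPM in Atf3 replicates 1 to 5 and 4.42, 4.92, 5.61, 4.74 and 5.92 CPM in Atf4 replicates 1 to 5 (log2 fold change -2.46 ± 0.14 SE, edgeR adjusted p = 2.25e-07). Myc, Jun, Nr4a1, Maff and Arc were also at least 2-fold lower, at -1.32, -1.29, -1.26, -1.23 and -1.73 log2. Nr4a2 (-0.08) and Npas4 (1.002) did not pass. In 15 of the 20 members the Atf3 line, not the Atf4 line, lay between the other lines, the reverse of the order most genes showed. Without Atf3 replicate 4 the list had 16 of 20 members lower, and without Atf4 replicate 5 it had 18 of 21. As the median over its members, the list stood at 0.62, 0.48, 0.70, 0.73 and 0.43 log2 in Atf3 replicates 1 to 5 and at -0.85, -0.58, -0.62, -0.66 and -0.30 in Atf4 replicates 1 to 5, relative to the midpoint of the lines. The control libraries spanned 0.01 to 1.86 on this scale, a wider range than either overexpressing line.

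Genes that restrain MAP kinase signalling and are themselves switched on by it were lower too. Of 16 tested members 13 were lower and 1 higher, 87.5% called against 41.1% of all genes, with a median of -0.55. Dusp6, a phosphatase that inactivates ERK, was at 509, 389, 563, 499 and 412 CPM in Atf3 replicates 1 to 5 and 58.9, 82.1, 95.7, 97.3 and 217 CPM in Atf4 replicates 1 to 5. The lines did not overlap (log2 fold change -2.09 ± 0.27 SE, edgeR adjusted p = 8.1e-05), but Atf4 replicate 5 stood above the other Atf4 libraries. Without it the log2 fold change of Dusp6 was -2.49. The Sprouty inhibitors Spry4, Spry1 and Spry2 were at -1.68, -1.48 and -1.11 log2, and the ERK-induced ETS factors Etv4 and Etv5 at -0.60 and -0.52; all passed. The exception was Dusp2, a nuclear MAP kinase phosphatase, at 32, 24.8, 41.7, 39.6 and 31.7 CPM in Atf3 replicates 1 to 5 and 100.5, 76.3, 119, 76.97 and 90.2 CPM in Atf4 replicates 1 to 5. It was higher in all Atf4 libraries (log2 fold change 1.46 ± 0.14 SE, edgeR adjusted p = 1.25e-05).

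Of the ligands and receptors that feed this pathway, 7 of 20 tested were higher and 6 lower, 65.0% called against 41.1% of all genes. Ligands made up 4 of the 6 lower genes. Hbegf, an EGF receptor ligand, was at 40.6 to 52.9 CPM in Atf3 libraries and 14.7 to 28.6 CPM in Atf4 libraries (log2 fold change -1.23 ± 0.14 SE, edgeR adjusted p = 3.68e-05), and Fgf1, Pdgfa and Nrg1 were at -0.78, -0.62 and -0.36 log2. Receptors made up 6 of the 7 higher genes, with Erbb3 at 0.96, Pdgfra at 0.74, Erbb4 at 0.70 and Egfr at 0.19 log2. Fgfr1 (-0.19) and Igf1r (-0.43) were lower.

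RefSeq promoter windows were read for these genes because members of a list moved together. Each window covers 250 bases before to 50 bases after a transcript's start (GRCm38.p6), and 11509 of 17379 tested gene symbols had one. The CArG box, the element bound by serum response factor, was searched on both strands. It was found in 1.34% of all windows, in none of the 15 immediate early genes whose first window was searched, and in 1 of 12 MAP kinase feedback genes. These counts cover only the first listed window of each gene. Elements more than 250 bases before its start were out of reach, so a gene without a match may still have the box. Dusp5 (-0.46 ± 0.07 SE, edgeR adjusted p = 2.12e-04) holds a pair of adjoining CArG boxes, and Egr2 holds one in the second of its 5 listed windows. Later windows were searched only for genes printed here, so the Egr2 box is outside the counts above. Capitals mark the boxes, at 82 and 72 bases before the start of Dusp5 and 72 before that of Egr2. Dusp5 is at chr19:53528895-53529194, plus strand, and Egr2 at chr10:67537316-67537615, plus strand.
Dusp5: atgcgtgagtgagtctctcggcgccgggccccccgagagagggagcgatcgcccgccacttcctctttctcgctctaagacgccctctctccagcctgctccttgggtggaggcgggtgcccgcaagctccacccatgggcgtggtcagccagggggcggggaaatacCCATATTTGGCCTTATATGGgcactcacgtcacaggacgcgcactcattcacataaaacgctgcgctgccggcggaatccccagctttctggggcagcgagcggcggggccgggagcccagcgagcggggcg
Egr2: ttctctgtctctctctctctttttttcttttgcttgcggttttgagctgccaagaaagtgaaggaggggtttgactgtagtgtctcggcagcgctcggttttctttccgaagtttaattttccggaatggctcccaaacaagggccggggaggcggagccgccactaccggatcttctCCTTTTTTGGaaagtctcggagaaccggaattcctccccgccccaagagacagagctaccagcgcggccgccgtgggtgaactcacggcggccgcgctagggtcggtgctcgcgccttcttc
The AP-1 element TGAGTCA, searched on both strands, was in 3.39% of all windows, in 6.8% of those of genes at least 2-fold lower and in 5.68% of those at least 2-fold higher. The cAMP response element TGACGTCA was in 3.25%, 2.91% and 2.84% of the same classes. A match is a description of the letters in the window and not evidence of binding.

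Several further genes were among the 12 largest falls at a mean log2 CPM of at least 2 with no overlap between the lines. Nampt, which makes the NAD precursor nicotinamide mononucleotide, was at 180.0, 184, 196, 182 and 201 CPM in Atf3 replicates 1 to 5 and 34.8, 39.3, 34.9, 39.99 and 42.5 CPM in Atf4 replicates 1 to 5. Both lines were tight and far apart (log2 fold change -2.28 ± 0.06 SE, edgeR adjusted p = 2.79e-11), and the control line was at 25.1 to 30.4 CPM. Tnfrsf12a, the receptor of the cytokine TWEAK, was at 51.4 to 71 CPM in Atf3 libraries and 8.89 to 21.5 CPM in Atf4 libraries (log2 fold change -2.26 ± 0.19 SE, edgeR adjusted p = 5.3e-06). Clic5, a chloride intracellular channel protein, was at 42.7 to 66.4 CPM in Atf3 libraries and 8.48 to 19.9 CPM in Atf4 libraries (log2 fold change -1.98 ± 0.20 SE, edgeR adjusted p = 1.45e-05). Ccn1, a secreted matricellular protein, was at 10.3 to 19.1 CPM in Atf3 libraries and 2.75 to 3.59 CPM in Atf4 libraries (log2 fold change -2.001 ± 0.15 SE, edgeR adjusted p = 2.27e-06), and at 5.18 to 28.3 CPM in control libraries. For Nampt, Tnfrsf12a and Clic5 the Atf4 line lay between control and the Atf3 line, and for Ccn1 the control mean lay between the other 2.

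The effectors of the integrated stress response, the textbook targets of ATF4, were mostly lower in the line labelled Atf4 than in the Atf3 line. Of 20 tested members 14 were lower and 1 higher, 75.0% called against 41.1% of all genes, with a median of -0.33, and 4 were at least 2-fold lower. Trib3, a pseudokinase that feeds back on AKT and ATF4, was at 11.3, 9.06, 11.3, 15.3 and 11.9 CPM in Atf3 replicates 1 to 5 and 2.66, 2.72, 3.96, 3.85 and 9.08 CPM in Atf4 replicates 1 to 5. Atf4 replicate 5 reached the lowest Atf3 library and the other 4 did not (log2 fold change -1.40 ± 0.28 SE, edgeR adjusted p = 0.00146). Chac1, which degrades glutathione, was at 8.25, 5.86, 7.96, 7.80 and 6.61 CPM in Atf3 replicates 1 to 5 and 1.67, 2.32, 2.92, 3.04 and 8.01 CPM in Atf4 replicates 1 to 5 (log2 fold change -1.02 ± 0.31 SE, edgeR adjusted p = 0.0191). Here too a single Atf4 library overlapped the Atf3 line. Gdf15, a secreted stress hormone, and Stc2, a secreted glycoprotein, were at -1.04 and -1.03 log2. Ddit3, which encodes the death-associated factor CHOP, was at 16.3 to 18.6 CPM in Atf3 libraries and 10.2 to 12.9 CPM in Atf4 libraries (log2 fold change -0.60 ± 0.07 SE, edgeR adjusted p = 2.72e-05), and at 10.4 to 13.3 CPM in control libraries. Ppp1r15a, the stress-induced eIF2 phosphatase subunit, was at -0.66, and Cebpb at -0.38 log2. Sesn2 (-0.0009), Gadd45a (-0.10) and Ddit4 (0.25) did not pass. Herpud1, of the endoplasmic reticulum degradation machinery, was higher (log2 fold change 0.27 ± 0.07 SE, edgeR adjusted p = 0.00932).

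The Atf4 line lay between control and the Atf3 line for 16 of these 20 members. In all of these but Ddit4 the control line was the lowest. Trib3, for example, was at 0.642 to 0.949 CPM in the control line. Without Atf4 replicate 5, 16 members were lower and 2 higher. As a median over members the list stood at -0.35, -0.24, -0.20, -0.15 and 0.08 log2 in Atf4 replicates 1 to 5 and at 0.26, 0.10, 0.22, 0.22 and 0.16 in Atf3 replicates 1 to 5. Atf4 replicate 5, the Atf4 library with the highest list level, also had the highest Atf4 mRNA of that line, 187.7 CPM, and replicate 1, with the lowest list level, had the lowest, 128.0 CPM. Replicates 1 and 5 were also the ends of the Atf4 line in ribosome biogenesis (-0.52 and -0.02) and cholesterol synthesis genes (-0.51 and -0.04). The order is thus not particular to this list, and a link to Atf4 mRNA was not tested. With 5 libraries a line, no correlation was computed.

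Of 17 tested ATF, CREB and C/EBP family members other than Atf3 and Atf4, 5 were lower and 3 higher, with a median of -0.05. The share called, 47.1%, was near the 41.1% of all genes. All of the lower ones but Atf5 (-0.20) were C/EBP proteins, with Cebpa at -0.35, Cebpd at -0.35 and Cebpg, a heterodimer partner of ATF4, at -0.26 log2. The higher ones were Crem, a cAMP-responsive modulator, at 8.79 to 10.4 CPM in Atf3 libraries and 13.8 to 15.1 CPM in Atf4 libraries (log2 fold change 0.59 ± 0.06 SE, edgeR adjusted p = 1.24e-05), Creb1 (0.19) and Jdp2 (0.22). The endoplasmic reticulum stress sensor Atf6 (-0.15) did not pass.

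Genes of amino acid supply were lower in part. Of 20 cytosolic aminoacyl-tRNA synthetases, the enzymes that charge tRNAs, 16 were lower and 1 higher, with a median of -0.31. Rars was at 132 to 158 CPM in Atf3 libraries and 87.9 to 119 CPM in Atf4 libraries (log2 fold change -0.57 ± 0.08 SE, edgeR adjusted p = 9.69e-05), and Qars was the one higher, at 0.28. Of 13 serine, glycine and one-carbon enzymes 0 were higher. The 6 lower ones made up 46.2%, where 21.3% of all genes were lower. They were led by mitochondrial Mthfd2 at 98.8 to 125 CPM in Atf3 libraries and 45.4 to 99.5 CPM in Atf4 libraries (log2 fold change -0.81 ± 0.16 SE, edgeR adjusted p = 0.00156). Of 15 other amino acid enzymes 7 were lower (46.7%) and 1 higher, 53.3% called. Cth, which makes cysteine, was at -0.88 and Cbs at -0.51. Asns, asparagine synthetase and a classic ATF4 target, was at 313, 259, 301, 296 and 296 CPM in Atf3 replicates 1 to 5 and 196, 203, 232, 238 and 273 CPM in Atf4 replicates 1 to 5. Only Atf4 replicate 5 entered the Atf3 range (log2 fold change -0.34 ± 0.08 SE, edgeR adjusted p = 0.00423), and the control line was at 70.6 to 74.8 CPM. Transporters split, with 7 of 16 lower and 5 higher. The arginine carrier Slc7a1 (-0.69) and the neutral carriers Slc1a4 (-0.52) and Slc1a5 (-0.48) were lower, and Slc7a5, the light chain of the leucine exchanger, was higher at 0.30.

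The C/EBP-ATF response element, searched as TGATGNAA on both strands, is a site through which ATF4 is known to act on such genes. It was found in 2.17% of all 11509 windows, in 4 of the 16 windows of the stress response effectors, in 5 of 12 of the tRNA synthetases, in 3 of 11 of the other amino acid enzymes and in none of 11 of the serine and one-carbon enzymes. Windows with the element are shown for 4 stress-responsive genes and for the mouse's own Atf3 gene, with the element in capitals. Coordinates are chr2:152344011-152344310, minus strand for Trib3, chr2:119350992-119351291, plus strand for Chac1, chr7:126625421-126625720, minus strand for Nupr1, chr6:7693160-7693459, minus strand for Asns and chr1:191183284-191183583, minus strand for Atf3.
Trib3: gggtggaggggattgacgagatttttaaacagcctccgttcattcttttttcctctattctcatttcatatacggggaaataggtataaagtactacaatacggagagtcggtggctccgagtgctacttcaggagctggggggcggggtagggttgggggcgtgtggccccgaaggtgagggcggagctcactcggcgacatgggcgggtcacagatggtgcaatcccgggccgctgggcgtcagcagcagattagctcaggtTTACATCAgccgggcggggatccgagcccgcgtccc
Chac1: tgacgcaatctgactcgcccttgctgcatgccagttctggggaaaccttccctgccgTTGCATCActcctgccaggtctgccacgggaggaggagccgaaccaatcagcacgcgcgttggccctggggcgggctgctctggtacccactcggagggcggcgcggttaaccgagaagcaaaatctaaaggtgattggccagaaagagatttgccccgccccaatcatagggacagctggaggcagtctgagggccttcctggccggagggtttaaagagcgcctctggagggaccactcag
Nupr1: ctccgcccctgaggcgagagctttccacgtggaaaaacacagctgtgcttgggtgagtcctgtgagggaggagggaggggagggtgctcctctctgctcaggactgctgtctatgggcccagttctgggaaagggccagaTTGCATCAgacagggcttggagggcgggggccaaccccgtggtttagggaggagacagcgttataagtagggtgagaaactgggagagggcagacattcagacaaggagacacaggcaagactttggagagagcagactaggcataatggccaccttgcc
Asns: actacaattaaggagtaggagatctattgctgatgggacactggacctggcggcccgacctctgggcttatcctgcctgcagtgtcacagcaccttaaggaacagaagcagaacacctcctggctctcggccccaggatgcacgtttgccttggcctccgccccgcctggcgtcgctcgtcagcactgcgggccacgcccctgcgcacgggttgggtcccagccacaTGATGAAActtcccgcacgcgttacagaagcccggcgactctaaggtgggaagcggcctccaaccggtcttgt
Atf3: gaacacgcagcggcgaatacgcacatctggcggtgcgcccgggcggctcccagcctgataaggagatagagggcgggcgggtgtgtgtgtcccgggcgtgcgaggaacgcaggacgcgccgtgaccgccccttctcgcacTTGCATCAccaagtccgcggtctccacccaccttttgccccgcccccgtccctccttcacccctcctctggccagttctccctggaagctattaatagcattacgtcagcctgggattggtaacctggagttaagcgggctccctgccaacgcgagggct
Trib3, Chac1, Nupr1 and Asns were all lower in the Atf4 line, with mean levels above control in both. They are not all the genes of these lists with the element. Herpud1, the remaining effector, was higher, as given above. Slc1a4 and the synthetases Gars (-0.30), Tars (-0.37) and Yars (-0.35) were lower, and Aars (-0.08), Iars (-0.18), Pycr1 (-0.01), Got1 (-0.19) and Slc7a11 (0.06) did not pass. Nupr1, a small stress-induced chromatin protein, was at 32.8 to 37.8 CPM in Atf3 libraries and 20.6 to 34.4 CPM in Atf4 libraries (log2 fold change -0.43 ± 0.11 SE, edgeR adjusted p = 0.00514). The element occurred in 2.91% of windows of genes at least 2-fold lower and in 4.55% of those at least 2-fold higher.

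All 27 ribosome biogenesis genes, which process ribosomal RNA and assemble subunits in the nucleolus, were lower in the Atf4 line, with a median of -0.59. Gnl3, which encodes nucleostemin, was at 90.02, 74.5, 103, 80.7 and 85.8 CPM in Atf3 replicates 1 to 5 and 34.6, 43.1, 46.6, 49.04 and 65.9 CPM in Atf4 replicates 1 to 5. Its lines did not overlap (log2 fold change -0.84 ± 0.13 SE, edgeR adjusted p = 3.29e-04). Nop2 was at -0.75, Dkc1 at -0.70, and Polr1c, the smallest difference of the list, at -0.17 log2. Each of the 27 had the Atf4 line between control and the Atf3 line, and all 27 remained lower in every fit that left out 1 library. Cytosolic ribosomal protein genes differed by much less, with 23 of 32 lower at a median of -0.15. With upper-quartile scaling 16 were lower. Of 16 purine and pyrimidine enzymes 9 were lower and 1 higher, with Ctps at -0.55 and Atic at -0.43. Srm, spermidine synthase, was at 101 to 130.2 CPM in Atf3 libraries and 56.9 to 89.6 CPM in Atf4 libraries (log2 fold change -0.69 ± 0.10 SE, edgeR adjusted p = 2.11e-04), among 5 of 10 polyamine genes that were lower. Odc1, the rate-limiting enzyme of that pathway, was at -0.09.

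Cholesterol synthesis genes were lower almost without exception, 21 of 22, with a median of -0.51. Hsd17b7 was at 82.04 to 112 CPM in Atf3 libraries and 46.7 to 71.6 CPM in Atf4 libraries (log2 fold change -0.73 ± 0.11 SE, edgeR adjusted p = 1.97e-04), and Lss, which closes the sterol rings, was at 137, 126, 175, 128 and 152 CPM in Atf3 replicates 1 to 5 and 66.8, 82, 73.1, 97.6 and 112 CPM in Atf4 replicates 1 to 5 (log2 fold change -0.72 ± 0.13 SE, edgeR adjusted p = 7.48e-04). Srebf2, the factor that controls these genes, was at -0.22. Only Ebp (-0.07) did not pass, and all 22 placed the Atf4 line between control and the Atf3 line.

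The cholesterol export gene Abca1 went the other way and had the largest rise of that kind among genes at a mean log2 CPM of at least 2. It was at 13.3, 19.1, 15.2, 15.8 and 18.2 CPM in Atf3 replicates 1 to 5 and 60.8, 45.5, 52.8, 59.6 and 46.7 CPM in Atf4 replicates 1 to 5. Every Atf4 library was above every Atf3 library (log2 fold change 1.72 ± 0.10 SE, edgeR adjusted p = 3.79e-07), and the control line was at 122 to 165 CPM. Apoe, the lipid carrier that takes up exported cholesterol, was at 51.5, 48.8, 44.6, 44.7 and 36.8 CPM in Atf3 replicates 1 to 5 and 136, 119, 107, 95.99 and 78.9 CPM in Atf4 replicates 1 to 5 (log2 fold change 1.26 ± 0.13 SE, edgeR adjusted p = 1.44e-05). Its lines did not overlap, and the control line was at 196 to 245 CPM. Srebf1, the factor that directs fatty acid synthesis, was also higher (0.37), whereas 6 of 12 fatty acid genes, such as Scd1 at -0.30, were lower. Of 16 glycolysis genes 8 were lower, with hexokinase Hk2 at -0.93 and Ldha at -0.42, and 4 were higher, with Pfkp at 0.52 and Pdk1 at 0.44.

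Of the 13 mitochondrially encoded genes 11 were lower, with a median of -0.21, and 7 with upper-quartile scaling. Their counts are part of the share of mitochondrial counts, which was 3.28% to 3.57% in the Atf4 line and 3.23% to 3.95% in the Atf3 line. In that share the lines overlapped through Atf3 replicate 4. Without that library 12 were lower. Nuclear-encoded mitochondrial chaperones were lower as well, 9 of 12 with a median of -0.27, and Hspd1, the mitochondrial chaperonin, was at 874 to 1016 CPM in Atf3 libraries and 637 to 754 CPM in Atf4 libraries (log2 fold change -0.43 ± 0.05 SE, edgeR adjusted p = 5.66e-05). Cytosolic heat shock genes all passed and split by kind: 8 of 13 were lower, among them Hsp90aa1 (-0.35), and 5 higher, among them the small heat shock proteins Hspb1 (0.59) and Hspb8 (0.58) and their partner Bag3 (0.50). Endoplasmic reticulum chaperones differed little: 6 of 19 were lower and 3 higher, 47.4% called against 41.1% of all genes. Their median was -0.01, and Hspa5, the central chaperone of that compartment, was at -0.11.

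**Figure D4:**
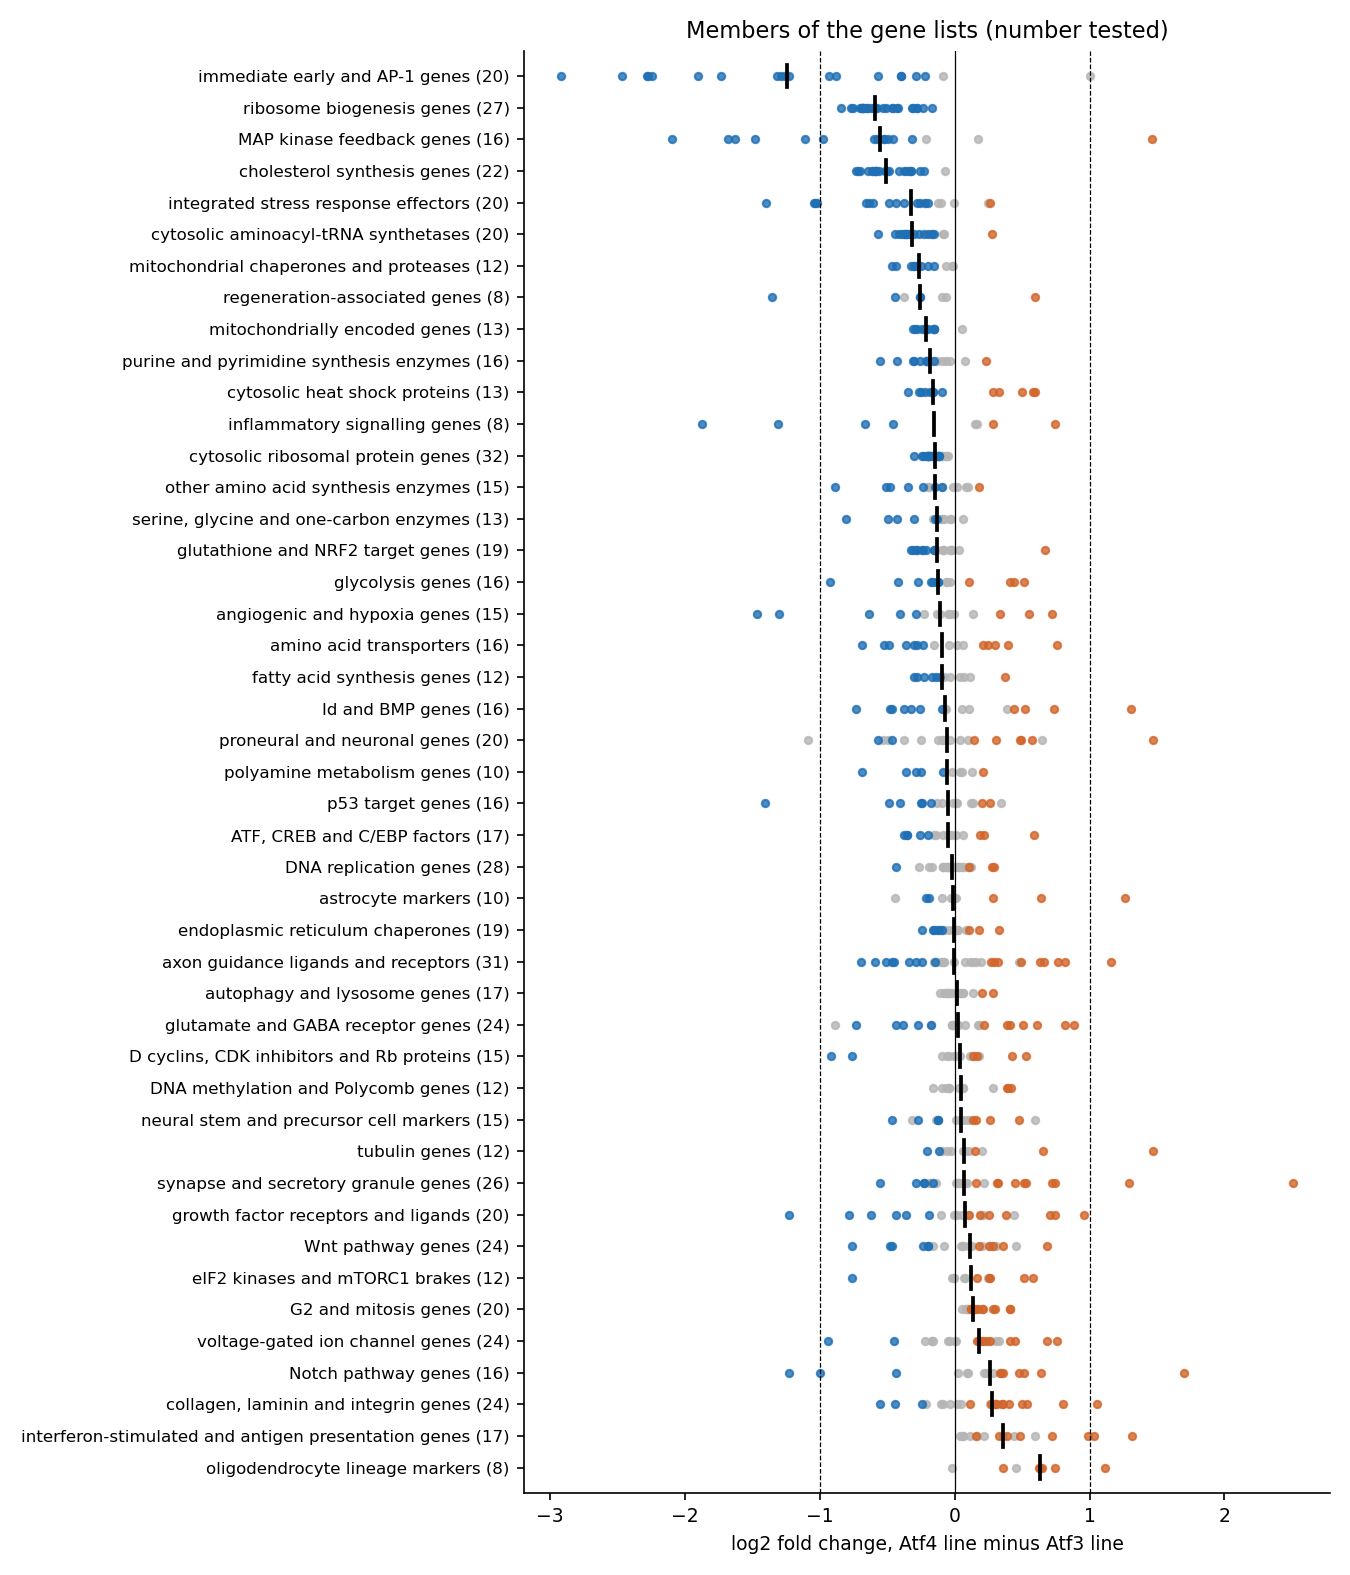
Log2 fold change (Atf4 line minus Atf3 line) of each tested member of the gene lists with at least 8 tested members, sorted by list median (black bar). Orange members were called higher, blue lower and grey neither by edgeR. Ribosome biogenesis and cholesterol synthesis members are almost all blue, and the oligodendrocyte list has the highest median.

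Cell cycle genes did not move as one. Of the DNA replication genes, 3 of 28 were higher and 1 lower, 14.3% against 41.1% of all genes, with a median of -0.02. Without Atf4 replicate 5 these became 3 higher and 5 lower. Genes of G2 and mitosis were slightly higher in the Atf4 line, 13 of 20 where 19.8% of all genes were, with a median of 0.14. The Atf3 line was the middle of the 3 lines in 16 of them. Cenpf and Cenpe, which act at kinetochores, were at 0.41 and 0.30 log2. Mki67, the proliferation marker, was at 220.2, 236, 286, 239 and 300.5 CPM in Atf3 replicates 1 to 5 and 285, 309, 317, 377 and 399 CPM in Atf4 replicates 1 to 5. The ranges overlapped, and the test was passed (log2 fold change 0.41 ± 0.10 SE, edgeR adjusted p = 0.00506). Of the D cyclins, which drive entry into the cycle, Ccnd1 and Ccnd2 were lower and Ccnd3 (-0.04) did not pass. Ccnd2 was at 310.4 to 446 CPM in Atf3 libraries and 127 to 291 CPM in Atf4 libraries (log2 fold change -0.91 ± 0.17 SE, edgeR adjusted p = 0.00111), and Ccnd1 was at -0.76. The inhibitors Cdkn2d (0.42) and Cdkn1c (0.53) were higher, and Cdkn1a, which encodes p21, was at 673 ± 13.2 and 671 ± 31.6 CPM (SD, n = 5 libraries a line; log2 fold change 0.01 ± 0.04 SE, edgeR adjusted p = 0.806). Other p53 targets split, with Plk2 lower at 237 to 295 CPM in Atf3 libraries and 91.5 to 122 CPM in Atf4 libraries (log2 fold change -1.41 ± 0.08 SE, edgeR adjusted p = 2.71e-07) among 6 lower and 2 higher of 16, 50% called against 41.1% of all genes.

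Of the stem and precursor cell markers 4 of 15 were higher and 4 lower, 26.7% each way against 19.8% and 21.3% of all genes. Sox2 (0.07 ± 0.05 SE, edgeR adjusted p = 0.236) did not pass. The intermediate filament Nes was slightly lower (-0.27 ± 0.08 SE, edgeR adjusted p = 0.017), with adjusted p = 0.05 without Atf4 replicate 3, and the radial glia lipid-binding protein Fabp7 was lower at 1123 to 1304 CPM in Atf3 libraries and 849 to 928 CPM in Atf4 libraries (log2 fold change -0.46 ± 0.04 SE, edgeR adjusted p = 7.63e-06). The intermediate filament Vim was higher (0.26). Such differences can come from more or fewer cells of a type or from more or less RNA per cell, which cannot be told apart in bulk libraries.

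The Notch pathway, which keeps neural precursors undifferentiated through HES repressors, had members in both directions. Of 16 tested members 7 were higher (43.8%) and 3 lower (18.8%), against 19.8% and 21.3% of all genes. Among the higher were the receptors Notch1, Notch2 and Notch3 and the ligands Dll1 and Dll3. Notch3 was at 9.13 to 11.4 CPM in Atf3 libraries and 14.04 to 15.9 CPM in Atf4 libraries (log2 fold change 0.64 ± 0.07 SE, edgeR adjusted p = 2.11e-05). The Notch modifier Lfng (-0.43), the ligand Jag1 (-0.996 ± 0.08 SE, edgeR adjusted p = 4.49e-06) and the effector Hes1 were lower. Hes1 was at 69.96, 57.5, 55.2, 58.5 and 49.01 CPM in Atf3 replicates 1 to 5 and 21.4, 26.3, 22.7, 24.9 and 27.6 CPM in Atf4 replicates 1 to 5, with no overlap (log2 fold change -1.22 ± 0.09 SE, edgeR adjusted p = 1.46e-06). Hes5, the other main effector, differed in the opposite direction, at 0.758, 1.42, 0.632, 1.60 and 0.795 CPM in Atf3 replicates 1 to 5 and 5.05, 3.64, 3.44, 3.03 and 1.45 CPM in Atf4 replicates 1 to 5 (log2 fold change 1.70 ± 0.31 SE, edgeR adjusted p = 8.37e-04). Its ranges overlapped through Atf4 replicate 5, and without that library its log2 fold change was 1.89. Of 16 Id and BMP genes 7 were lower and 4 higher, where 21.3% and 19.8% of all genes were. Id3 and Id2, inhibitors of differentiation downstream of BMP, were lower at -0.73 and -0.32, and the BMP brakes Smad7 (0.74), Smad6 (0.52) and Bambi (0.44) were higher. Of 24 Wnt pathway genes 5 were higher and 6 lower, 20.8% and 25.0% and so near the 19.8% and 21.3% of all genes. The receptor Fzd1 (-0.76), the target Axin2 (-0.47) and the mediator Lef1 (-0.48) were lower, and Rnf43, a brake on Wnt receptors, higher (0.68).

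Among neuronal genes a few were clearly higher in the Atf4 line. Tubb3, the neuronal beta tubulin, was at 16.2, 17.5, 13.4, 17.4 and 13.8 CPM in Atf3 replicates 1 to 5 and 52.2, 46.2, 45.3, 39.3 and 31.7 CPM in Atf4 replicates 1 to 5. Its lines did not overlap (log2 fold change 1.47 ± 0.12 SE, edgeR adjusted p = 4.27e-06), and the control line was at 82.9 to 87.6 CPM. Scg2, a granin of secretory vesicles, was at 1.31, 1.53, 1.002, 1.30 and 1.09 CPM in Atf3 replicates 1 to 5 and 8.77, 7.53, 7.76, 5.97 and 4.94 CPM in Atf4 replicates 1 to 5. This was the largest difference of any list member in that direction (log2 fold change 2.51 ± 0.17 SE, edgeR adjusted p = 6.73e-07), with 38.4 to 47.2 CPM in the control line. Of 12 tubulin genes 3 were higher and 2 lower, 41.7% in all and so near the 41.1% of all genes, and the next largest difference was that of Tubb4a (0.66). Camk2a, a synaptic kinase, was at 3.23 to 4.84 CPM in Atf3 libraries and 5.44 to 12.1 CPM in Atf4 libraries (log2 fold change 1.29 ± 0.19 SE, edgeR adjusted p = 1.74e-04), and Snap25, a vesicle fusion protein, at 0.74. In the lists, 6 of 20 proneural and neuronal genes were higher and 2 lower (median -0.06), and 10 of 26 synapse and secretory genes were higher and 5 lower (median 0.07). Called in either direction were 40.0% and 57.7%, against 41.1% of all genes. Several vesicle and scaffold genes were higher, such as Syn2 (0.45), Shank2 (0.73), Nlgn3 (0.53) and the granin Chgb (0.51), whereas the calcium sensor Syt1 (-0.56) and the scaffold Dlg4 (-0.28) were lower. Prox1, a granule neuron factor, was higher (0.57), and Elavl4 was lower (-0.47). Dcx, the marker of young neurons, was under 1 CPM in all 10 libraries and missed the threshold (-0.49 ± 0.19 SE, edgeR adjusted p = 0.0554).

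Of 24 voltage-gated channel genes 10 were higher (41.7%) and 2 lower (8.3%), against 19.8% and 21.3% of all genes. In either direction 50% were called, against 41.1% of all genes. One of the lower was Kcnc1, a fast potassium channel, at 696, 665, 804, 732 and 692 CPM in Atf3 replicates 1 to 5 and 289.6, 320.1, 351, 393 and 498 CPM in Atf4 replicates 1 to 5 (log2 fold change -0.94 ± 0.12 SE, edgeR adjusted p = 5.67e-05). The control line had 137 to 153 CPM of it. The sodium channel Scn3a (0.76) and the calcium channel Cacna1d (0.69) were higher. Glutamate and GABA receptor genes were split, 7 of 24 higher and 5 lower, also 50%. The NMDA receptor subunit Grin2a (0.51) and the GABA receptor subunit Gabrb1 (0.61) were higher, and the AMPA receptor subunit Gria2 (-0.27) and the GABA receptor subunit Gabra2 (-0.44) lower. Axon guidance genes were split evenly, 9 of 31 each way, with Efnb2 (-0.70) and Ntn4 (-0.59) lower and Sema5a (0.82) and Draxin higher. Draxin was at 13.98, 26.4, 12.5, 23.7 and 17.3 CPM in Atf3 replicates 1 to 5 and 65.5, 44.5, 43.8, 32.9 and 19.7 CPM in Atf4 replicates 1 to 5, with Atf4 replicate 5 inside the Atf3 range (log2 fold change 1.16 ± 0.27 SE, edgeR adjusted p = 0.00442). Of 8 tested regeneration-associated genes, which rise in neurons that regrow axons, 4 were lower and 1 higher. Klf6, a transcription factor of this list, was at 57.1 to 72.6 CPM in Atf3 libraries and 19.1 to 32.5 CPM in Atf4 libraries (log2 fold change -1.35 ± 0.12 SE, edgeR adjusted p = 7.88e-06), and the hyaluronan receptor Cd44 at -0.25.

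Oligodendrocyte lineage genes had the highest median of the lists with at least 8 tested members, 0.63, with 6 of 8 tested members higher, where 19.8% of all genes were. Pdgfra and Cspg4, which mark oligodendrocyte precursors, were both higher. Pdgfra was at 1.26 to 1.81 CPM in Atf3 libraries and 2.05 to 3.81 CPM in Atf4 libraries (log2 fold change 0.74 ± 0.16 SE, edgeR adjusted p = 0.00259), and Cspg4 at 11.4 to 14.5 CPM in Atf3 libraries and 18.4 to 23.2 CPM in Atf4 libraries (log2 fold change 0.65 ± 0.07 SE, edgeR adjusted p = 3.63e-05). The control line was above both, at 4.27 to 5.38 and 29.1 to 33.3 CPM. Olig2, the lineage factor, was at 1117, 1127, 1149, 1377 and 1070.0 CPM in Atf3 replicates 1 to 5 and 1207, 1146, 1182, 1054 and 1116 CPM in Atf4 replicates 1 to 5. The lines overlapped and the test was not passed (log2 fold change -0.02 ± 0.06 SE, edgeR adjusted p = 0.846). The 6 untested members, among them Sox10 and Mog, were too low to test. Astrocyte markers were mixed, 3 of 10 higher and 2 lower, 50% called. The 3 higher were Apoe, Clu (0.64) and Gfap, and the glutamate transporters Slc1a2 (0.01) and Slc1a3 (776.9 and 767.2 CPM on average) did not pass. Gfap was at 53.2 to 58.9 CPM in Atf3 libraries and 59.2 to 76.5 CPM in Atf4 libraries (log2 fold change 0.29 ± 0.06 SE, edgeR adjusted p = 0.00345), against 121 to 143 CPM in the control line.

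Interferon-stimulated and antigen presentation genes were higher in 8 of 17 tested members, where 19.8% of all genes were, at a median of 0.36. Irf7, the amplifier of type I interferon, was at 0.795, 0.509, 0.422, 0.763 and 0.665 CPM in Atf3 replicates 1 to 5 and 1.95, 1.71, 1.56, 1.45 and 1.06 CPM in Atf4 replicates 1 to 5 (log2 fold change 1.32 ± 0.20 SE, edgeR adjusted p = 2.51e-04). Isg15 was at 1.03 and the class I heavy chain H2-K1 at 0.33, whereas the upstream factor Stat2 (0.11) did not pass. The 9 microglia markers, which include the leukocyte gene Ptprc, summed to 1.23 to 1.62 CPM in Atf3 libraries and 0.786 to 1.30 CPM in Atf4 libraries, and C1qa was at 0. Of 8 inflammatory signalling genes 4 were lower, such as the cytokine brake Socs3 (-1.31 ± 0.12 SE, edgeR adjusted p = 8.54e-06), and 2 higher, such as the NF-kB brake Tnfaip3 (0.75 ± 0.15 SE, edgeR adjusted p = 0.00174). Of 24 collagen, laminin and integrin genes 12 were higher and 3 lower, 62.5% called against 41.1% of all genes. Basement membrane chains were among the higher, with Col4a2 at 0.41, Lamb1 at 0.53 and Lama5 at 0.36. Col9a1 was at 1.05, and Itgb1, the common beta integrin, was lower at -0.24. Of 15 angiogenic and hypoxia genes 5 were lower and 3 higher, 53.3% called against 41.1% of all genes. The angiogenic peptide Apln was lower at 101 to 148 CPM in Atf3 libraries and 32.6 to 60.6 CPM in Atf4 libraries (log2 fold change -1.46 ± 0.14 SE, edgeR adjusted p = 1.19e-05), as was Vegfa (-0.63), and the VEGF receptor Kdr was higher (0.72).

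Brakes on the growth kinase mTORC1 were among the higher genes, with Castor2 at 31.3 to 37.6 CPM in Atf3 libraries and 43.9 to 57.6 CPM in Atf4 libraries (log2 fold change 0.58 ± 0.07 SE, edgeR adjusted p = 3.92e-05) and Sesn3 at 0.51, while Deptor was lower (-0.76). That list of eIF2 kinases and mTORC1 brakes had 5 of 12 members higher (41.7%) and 1 lower (8.3%), against 19.8% and 21.3% of all genes. Of the eIF2 kinases Eif2ak2 alone passed (0.17), and it is 1 of the 5. Of 12 DNA methylation and Polycomb genes 3 were higher, 25.0% called against 41.1% of all genes. They were the DNA demethylases Tet1 (0.39) and Tet2 (0.42) and the histone methyltransferase Ezh1 (0.39). Fbxo32, the ubiquitin ligase atrogin-1, was at 1.79 to 3.11 CPM in Atf3 libraries and 4.76 to 10.4 CPM in Atf4 libraries (log2 fold change 1.68 ± 0.20 SE, edgeR adjusted p = 4.34e-05). Of 17 autophagy and lysosome genes 2 were higher, 11.8% called against 41.1% of all genes. They were Ulk1 (0.29) and Map1lc3b (0.21), and Map1lc3b missed the threshold without any 1 of 3 libraries (Atf3 replicate 3 or 5 or Atf4 replicate 2). Of 19 glutathione and NRF2 target genes 9 were lower (47.4%, where 21.3% of all genes were) and 1 higher, 52.6% called. Txnrd1 was at -0.32 and Gsta4 at 0.67. Smoc1, Tmem255a, Shisal1, Rasl12, Kif19a and Parm1 complete the 12 largest rises without overlap at a mean log2 CPM of at least 2. Smoc1 is a secreted BMP modulator. These genes were at 1.40, 1.24, 1.19, 1.18, 1.18 and 1.12 log2. For each the Atf4 line lay between the Atf3 line and the control line.

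For some lists the Atf4 libraries were spread along the difference between the lines. Over all genes they spanned 10.8 to 34.2 on the first principal component, which separates the lines, and -17.6 to 28.2 on the second, which holds 12.7% of the variance. Ribosome biogenesis genes, as the median over members, stood at -0.52, -0.41, -0.29, -0.27 and -0.02 log2 in Atf4 replicates 1 to 5 and at 0.37, 0.14, 0.44, 0.28 and 0.30 in Atf3 replicates 1 to 5. Cholesterol synthesis genes stood at -0.51, -0.24, -0.39, -0.16 and -0.04 and at 0.29, 0.16, 0.44, 0.15 and 0.29. In both lists Atf4 replicate 1 was farthest from the Atf3 line and Atf4 replicate 5 nearest to it. Replicate 1 was also the farthest library in 42.4% of all genes that passed the test. The median SD of log2 CPM over genes was 0.11 among Atf3 libraries and 0.123 among Atf4 libraries, or 0.10 without Atf4 replicate 5. What sets these libraries apart was not tested.

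**Figure D5:**
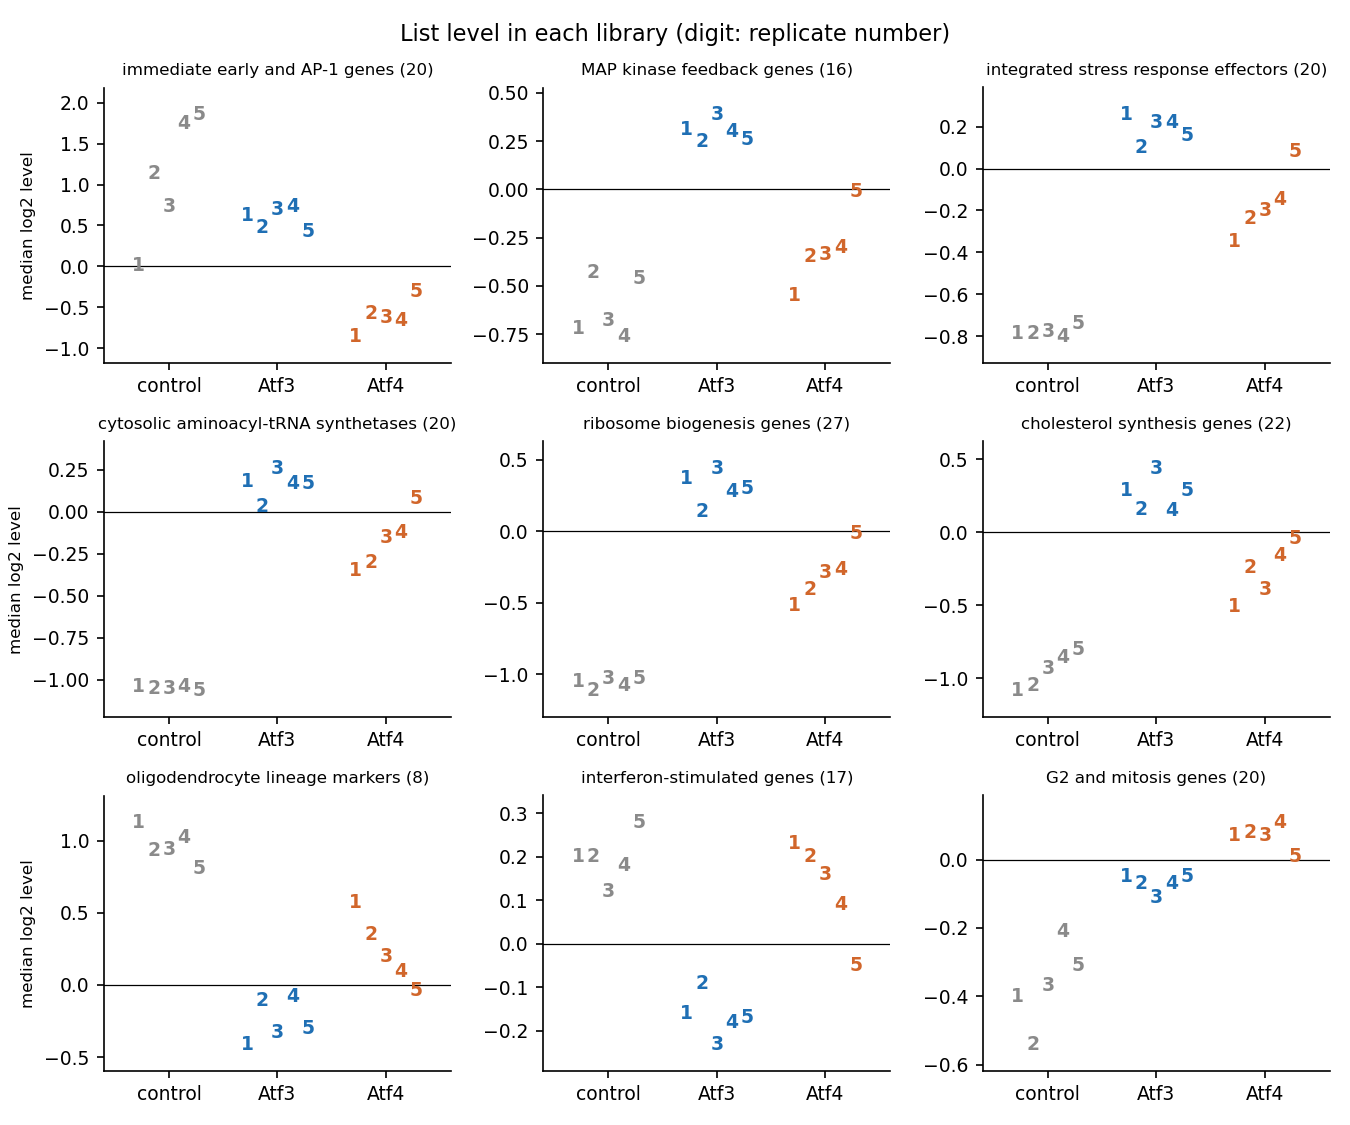
Level of 9 gene lists in each library, as the median over tested members of the log2 level relative to the midpoint of the Atf3 and Atf4 lines. Digits are replicate numbers of the control (grey), Atf3 (blue) and Atf4 (orange) lines. Atf4 replicate 5 is the Atf4 library nearest to the Atf3 line in all 9 panels.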

How the data were processed

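RNA sequencing was done on 5 libraries of each of 3 lines, read in pairs from the NEBNext Ultra kit, per the labels' protocols; that kit does not mark strand. The authors deposited raw read counts per Ensembl gene. The submitters' processing notes name STAR, edgeR and mm10. The counting program, its strand setting, the annotation and all versions were not given in the sources used here. Of 55416 identifiers 52135 matched a symbol in GENCODE M21 (GRCm38, the same assembly as mm10).

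Groups follow the titles. The 10 Atf4 and Atf3 libraries were fitted without the control line with edgeR 4.0.16 (R 4.3.3): filterByExpr, TMM, quasi-likelihood test, Benjamini-Hochberg adjusted p under 0.05 over 17386 genes. SE is the absolute log2 fold change divided by the square root of F. Levels are CPM over TMM-scaled totals of all 15 libraries, and levels by list add 0.1 CPM before the log. On simulated counts the test recovered 54.0%, 73.5%, 86.0% and 100.0% of genes changed 1.25-, 1.5-, 2- and 4-fold. It called 6 unchanged genes among the 17199 tested there, changed ones included. The simulation changed only 50 genes per fold, balanced in direction, and had no library that stood apart. In the data 41.1% of genes were called, so these rates need not hold for them. Total counts were 55.0 to 69.6 M per library. Libraries of a line differed by more than counting noise (chi-square per degree of freedom 6.59 to 53.4 within the 2 lines), so errors rest on the spread between libraries.

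The comparison, the gene lists and the rule for named genes were chosen with earlier results of these data known. Named by rule were Atf3 and Atf4, the 12 largest rises and 12 largest falls (called, lines not overlapping, mean log2 CPM 2 or above, predicted and clone names left out), up to 2 members a direction and list at 1 CPM or more, and 12 set genes such as Sox2, Fos and Asns. Other list members named in the text were chosen after their values were seen. Control levels carry no test. Some results for single genes are not reported here.

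Replicate numbers are shared between lines, but the deviations of same-numbered libraries correlated at only -0.10 to 0.10, so the samples were not treated as pairs. Alternatives were DESeq2 1.42.0, limma-voom 3.58.1, RLE and upper-quartile scaling, no low-count filter, a filter at 1 CPM in 5 libraries, all 15 libraries, a replicate block and each of 10 libraries left out. Promoter windows came from RefSeq (GRCm38.p6).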

Additional observations from a re-analysis of the deposited data

Results flagged for a closer look

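In 19 of 342 values checked, 1 library of a line of 5 lay further from its neighbour than 0.71 of the line's whole range (Dixon's test). Chance sets apart about 1 in 20 such groups. The libraries concerned are not spread evenly. Atf4 replicate 5 was the highest of its line for Dusp6 (217.1 CPM, the others at most 97.31), Spry4 (61.36 CPM), Plk2 (121.9 CPM), Trib3 (9.083 CPM), Slc1a4 (80.6 CPM) and Herpud1 (19.64 CPM), and the lowest for Sdf2l1 (39.38 CPM). Atf3 replicate 4 was the highest of its line for the immediate early genes Egr3 (20.33 CPM), Junb (42.02 CPM) and Ier2 (116.4 CPM), for Qars (47.62 CPM) and for Olig2 (1377 CPM), and the lowest for Canx (945.4 CPM) and for the share of mitochondrial counts (3.233%). Single values were set apart in other libraries: Slc38a1 in Atf4 replicate 1 (2.146 CPM, highest), Itgb1 in Atf4 replicate 2 (850.0 CPM, lowest), Notch3 in Atf3 replicate 5 (11.43 CPM, highest), Cacna1d in Atf3 replicate 1 (2.81 CPM, lowest) and Acss2 in Atf3 replicate 3 (35.48 CPM, highest).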

How the results depend on the processing

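DESeq2 called 7077 and limma-voom 7018 of the 7140 genes in the same direction. With the replicate block 3085 genes were higher and 3360 lower, and 1 of 5 Atf3 libraries correlated best with its own number; the block cut the called endoplasmic reticulum chaperones from 9 to 5. Without each of the 10 libraries in turn, 2889 to 3802 genes were higher and 3271 to 3959 lower. At least 2-fold calls moved most with the low-count filter: 525 were higher without a filter, and 96 higher and 81 lower with a filter at 1 CPM, for which fewer genes of low level were tested. That filter left 7 Id and BMP genes called and 0 microglia markers. Without a filter 5 stem cell markers and 1 ependymal marker were called. The single called mural marker was lost (0 called) without a filter, with the 1 CPM filter and with the block. Upper-quartile scaling called 3 fatty acid, 4 autophagy, 7 mitochondrially encoded and 5 Polycomb genes, and moved the medians to 0.25 under 1 CPM, 0.17 at 1 to 10 CPM, 0.0325 for genes between 10 and 100 CPM, -0.0301 for those above, 0.0407 on chromosome 11 and 0.10 on chromosome 13. No filter gave 0.29 under 1 CPM, 0.0161 on chromosome 11 and 0.11 on chromosome 13. The 1 CPM filter gave -0.0026 for genes between 10 and 100 CPM and -0.0651 for those above. DESeq2 called 4 autophagy genes and the fit of all 15 libraries 5. With 1 library left out, called members ranged from 5 to 10 for other amino acid enzymes, 7 to 10 for Id and BMP genes, 5 to 8 for stem cell markers, 5 to 9 for neuronal genes, 3 to 8 for DNA replication (most without Atf4 replicate 5), 4 to 8 for fatty acid, 1 to 3 for autophagy, 3 to 5 for Polycomb, 1 to 2 for endothelial and 0 to 1 for mural genes. Apart from the mural marker, falls by over 1.5 times came without Atf3 replicate 1, 3 or 5 or Atf4 replicate 1, 2 or 3, and such rises, in DNA replication and Polycomb genes, without Atf4 replicate 5. No gene of the 166 named by rule changed direction under any alternative, and DESeq2, limma-voom and RLE scaling changed no call among them; Dcx passed with all 15 libraries (adjusted p = 0.0257) and without Atf3 replicate 2 (adjusted p = 0.0281). Except where given above, the cause of a moved value was not tested. Depth limits mainly the genes under 1 CPM.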
